A study of Trametes coccinea with 18 samples.

Results

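A set of 5 gene models of the white-rot fungus Pycco 310 (*Pycnoporus coccineus* CIRM-BRFM 310, also named *Trametes coccinea*) was followed over 6 carbon sources: 448186, 1468135, 1477222, 1466495 and 1447350. These 5 of 12690 gene models were chosen by the size of their rise from maltose on aspen, pine or wheat straw, so their values on those substrates and on maltose describe the choice and were not tested. RNA came from mycelium of the single strain CIRM-BRFM 310, grown in liquid culture and collected on day 3, with 3 libraries for each carbon source and 18 in all. The maltose medium held 20 g/l of maltose. The other 5 media held 15 g/l of Avicel (microcrystalline cellulose), of a xylan and galactomannan preparation, of aspen, of pine or of wheat straw, each with 2.5 g/l of maltose, which the fungus therefore received in every medium.

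The libraries held 26370228 to 42190522 counts on gene models, and replicates correlated with Pearson's r from 0.957 to 0.991 on log2 CPM. CPM are counts relative to the size of a library, here scaled with the trimmed mean of M values (TMM). The label of xylan-galactomannan replicate 3 names this medium in its title and agent but wheat straw in its description. Its r was 0.977 and 0.957 with the other xylan-galactomannan libraries and 0.951 to 0.954 with the wheat straw libraries. Gene model 1466495, which had 1733 to 20938 counts on wheat straw, had 10 counts in it, beside 4 and 6 in replicates 1 and 2. Most fold changes and calls that rest on this library are given with and without it.

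White-rot fungi secrete enzymes that break cellulose, hemicellulose and lignin, and many of the genes for them are transcribed weakly on simple sugars and strongly on plant matter. The enzymes are exported through a signal peptide at the start of the protein. Among them, the AA9 lytic polysaccharide monooxygenases are copper enzymes that cut cellulose chains by oxidation, and cellobiose dehydrogenase, of family AA8-AA3_1, is a known electron donor for them. Only 1466495 carries a family name in the annotation of the study, as an AA9 with a signal peptide that was also detected among the secreted proteins. 1468135 and 1477222 have a predicted signal peptide and no annotated function. 448186 and 1447350 have neither a predicted signal peptide nor an annotated function.

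On the Pycco1 assembly the 5 loci are listed without a chromosome or strand, so their bases count from the start of an unnamed scaffold. Loci listed next to each other with rising positions were taken to lie on the same scaffold, and overlaps and distances rest on that. 448186 lies at 383347 to 383947 and 1468135 at 383879 to 384325, so that they share 69 bases. At its other end 448186 shares 320 bases with 1435843, at 381680 to 383666. 1477222, at 6149 to 7029, shares 160 bases with 271638, at 5392 to 6308. 1466495, at 391136 to 392332, and 1447350, at 107949 to 109516, overlap no listed locus. Of 13016 loci, 1703 (13.1%) overlap the next one. The strand setting of the counting is not given in the sources used here, so reads of overlapping loci cannot be told apart.

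**Figure D1:**
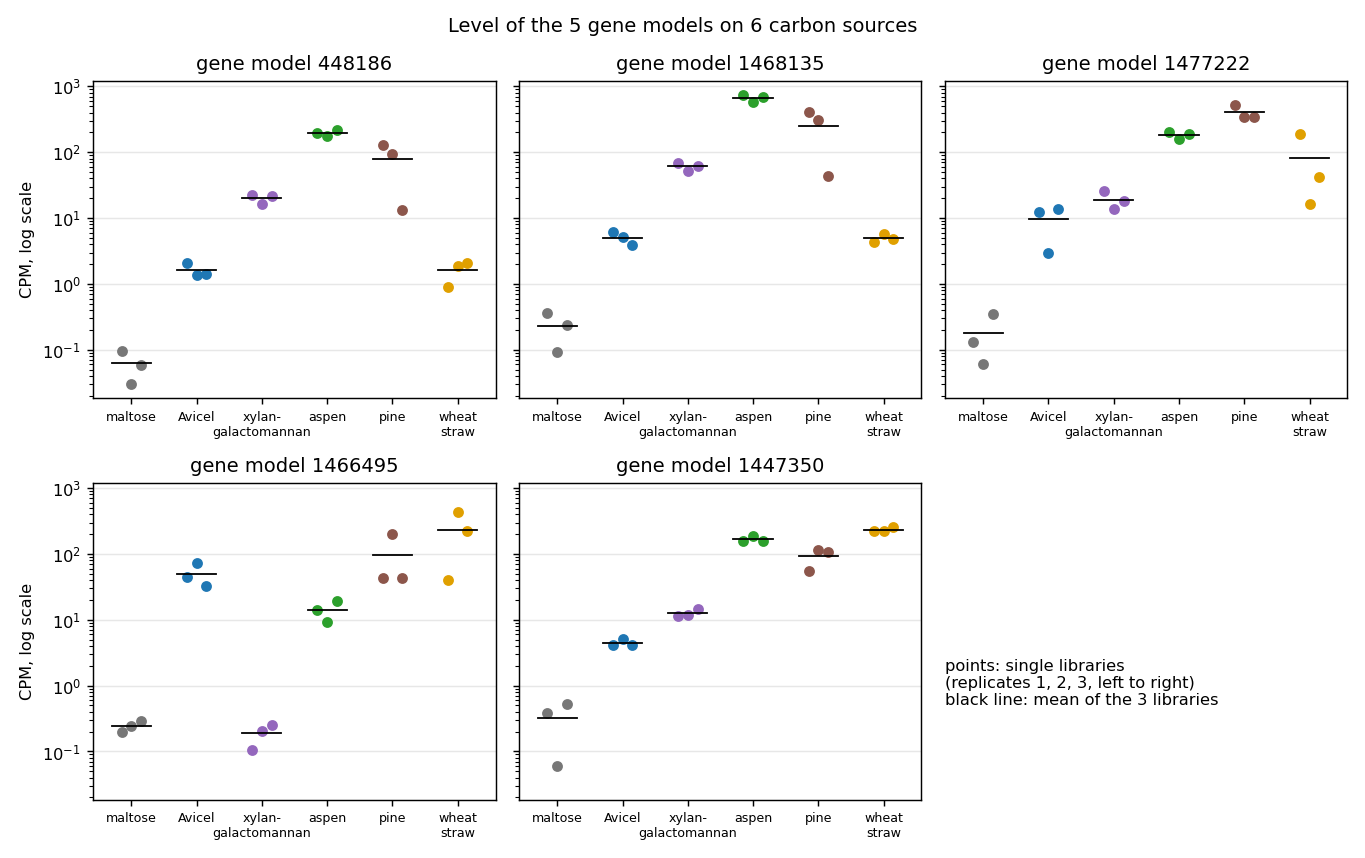
CPM of the 5 gene models (log axis) in the 18 libraries, by carbon source; points are single libraries and black lines are means of 3. All 5 gene models lay at or below 0.530 CPM in each maltose library, and 1466495 also lay at or below 0.257 CPM in each xylan-galactomannan library.

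448186 and 1468135, the overlapping pair, were highest on aspen. Raw counts of 448186 on maltose were 3, 1 and 2 in replicates 1, 2 and 3. They were 6176, 5609 and 6440 on aspen, 4105, 2410 and 285 on pine, and 39, 89 and 88 on wheat straw. On Avicel they were 87, 54 and 47, and on xylan-galactomannan 829, 474 and 833. No library on another carbon source was as low as any of those on maltose, and wheat straw and Avicel overlapped. Mean CPM was 0.0622 ± 0.0334 on maltose (SD, n = 3) and 195.5 ± 19.7 on aspen. The log2 fold change from maltose was 11.54 ± 0.88 on aspen (SE). It was 10.25 ± 0.87 on pine, whereas wheat straw gave 4.60 ± 0.93. On summed counts the rise on aspen was 3172-fold, with an exact 95% interval from 1457 to 8644. The interval is wide because just 6 counts on maltose stand below it, and it covers only the counting error of counts taken as independent.

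1468135 had 11, 3 and 8 counts on maltose, 22800, 18910 and 21019 on aspen, and 12818, 7779 and 949 on pine. It had 188, 272 and 201 counts on wheat straw, 253, 205 and 129 on Avicel, and 2583, 1516 and 2413 on xylan-galactomannan. The order of the carbon sources was the same as for 448186, from aspen through pine, xylan-galactomannan, Avicel and wheat straw to maltose. Pine overlapped xylan-galactomannan, and Avicel overlapped wheat straw, where the mean log2 CPM differed by 0.03 beside a pooled SD of 0.26. The log2 fold change from maltose was 11.50 ± 0.80 on aspen and 10.09 ± 0.77 on pine, and wheat straw gave 4.39 ± 0.68. The summed counts rose 2978-fold on aspen, with an interval from 1966 to 4751.

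Pine replicate 3 was low for both. 448186 reached 129 and 94.6 CPM in pine replicates 1 and 2 and 13.0 CPM in replicate 3, a 9.91-fold range. Among 9920 gene models with a mean of at least 1 CPM on pine, 0.192% had a range at least as wide, and the median range was 1.55-fold. 1468135 had a 9.29-fold range over the same libraries. Without pine replicate 3 the log2 fold changes on pine were 10.69 for 448186 and 10.53 for 1468135, and without pine replicate 1 they were 9.62 and 9.50.

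The counts of this pair moved together in every library. For each 100 counts of 1468135 there were 20.7 to 43.8 counts of 448186 over the 18 libraries (median 31.1), while the counts themselves ranged from 1 to 6440 for 448186. Pearson's r of their log2 CPM was 0.998 over the 18 libraries, which include the aspen and maltose libraries that chose both. How many reads of 448186 come from the bases it shares with 1468135 was not tested. 1435843, which overlaps the other end of 448186 over more bases, had 94 to 145 counts on maltose and 180 to 226 on aspen, and was not called there (log2 fold change 0.83 ± 0.22, adjusted p = 0.0045 by edgeR's quasi-likelihood test, but below a change of 1). It was called higher on pine (2.16 ± 0.22), on wheat straw (1.25 ± 0.22) and on xylan-galactomannan (1.13 ± 0.26), the last of which was lost without xylan-galactomannan replicate 3 (0.81 ± 0.25).

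**Figure D2:**
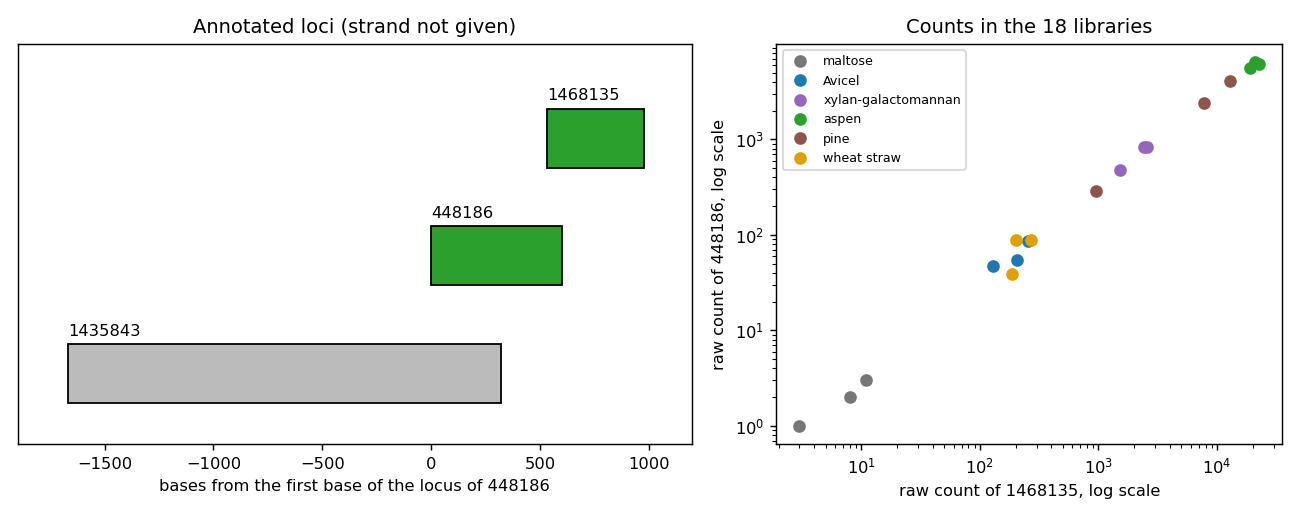
Left, loci of 1435843, 448186 and 1468135, drawn to scale in bases from the first base of 448186; right, raw counts of 448186 against those of 1468135 (both axes log) in the 18 libraries, coloured by carbon source. The libraries lie close to one line, at 20.7 to 43.8 counts of 448186 for each 100 of 1468135.

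1477222, with a predicted signal peptide, was the member that was highest on pine. It had 4, 2 and 12 counts on maltose, 16696, 8821 and 7399 on pine, and 6267, 5170 and 5694 on aspen. On wheat straw the counts were 8364, 774 and 1776, on Avicel 515, 118 and 445, and on xylan-galactomannan 951, 394 and 706. All pine libraries lay above all aspen libraries, by 1.11 in mean log2 CPM with a pooled SD of 0.28. Wheat straw overlapped both aspen and xylan-galactomannan, because its libraries ran from 16.1 to 191 CPM. That 11.9-fold range was reached by 0.0399% of 10028 gene models on wheat straw, where the median range was 1.28-fold.

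The log2 fold change of 1477222 from maltose was 11.08 ± 1.06 on pine, and it was 9.93 ± 1.03 on aspen and 8.77 ± 1.00 for wheat straw. Single libraries moved these values. Without wheat straw replicate 1 the change on wheat straw was 7.24. Without maltose replicate 3, which held 12 of the 18 counts on maltose, the changes were 12.00 for pine, 10.85 for aspen and 9.69 for wheat straw. The overlapping gene model 271638 had 16 counts on maltose in all, and 2173, 1911 and 3136 on pine. On wheat straw 271638 followed the order of 1477222, with 211, 44.9 and 83.6 CPM beside 191, 16.1 and 42.0 CPM in replicates 1, 2 and 3. On pine it had 68.4, 75.0 and 144 CPM, where 1477222 had 526, 346 and 339 CPM. How many reads of 1477222 come from the shared bases was not tested.

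1447350 was high on all 3 plant substrates and had the narrowest spread between replicates on wheat straw. Its counts were 12, 2 and 18 on maltose and 9738, 10808 and 10852 on wheat straw. They were 4898, 6054 and 4699 on aspen, 1744, 2889 and 2352 on pine, 424, 336 and 578 on xylan-galactomannan, and 169, 204 and 137 on Avicel. No neighbouring carbon sources overlapped in its order, which ran from wheat straw through aspen, pine, xylan-galactomannan and Avicel to maltose. On wheat straw the level was 234.7 ± 18.8 CPM (SD, n = 3), a 1.15-fold range between libraries. The log2 fold change from maltose was 9.44 ± 0.46 on wheat straw, 8.97 ± 0.46 on aspen and 8.13 ± 0.45 on pine. The widest range was on maltose, 8.66-fold between replicates 2 and 3, at 2 and 18 counts.

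1466495, the AA9 gene, had a different order. It was highest on wheat straw, with 1733, 20938 and 9527 counts, then on pine, with 1372, 5067 and 952 counts, and on Avicel, with 1827, 2938 and 1063 counts. On aspen it had 436, 301 and 587 counts. On maltose it had 6, 8 and 10 counts, and on xylan-galactomannan 4, 6 and 10 counts. Wheat straw, pine and Avicel overlapped each other in CPM, aspen lay below these libraries, and xylan-galactomannan overlapped maltose. The sum of 20 counts on xylan-galactomannan was 0.772 times that on maltose after scaling, with an exact 95% interval from 0.405 to 1.46. That interval takes each count as independent, and all counts of 1466495 on these media were even. Whether both reads of a pair were counted was not tested. If they were, the interval is too narrow. A difference between these media was not detectable at this depth.

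The wheat straw libraries of 1466495 ran from 39.6 to 436 CPM, an 11.0-fold range that 0.0598% of gene models reached. The pine libraries ran from 43.2 to 199 CPM. The log2 fold change from maltose was 9.84 ± 1.01 on wheat straw, 8.57 ± 0.98 on pine and 5.83 ± 0.92 on aspen. Without wheat straw replicate 2 the change on wheat straw was 9.02, and without pine replicate 2 that on pine was 7.40. On wheat straw the libraries high in 1466495 were the ones low in 1477222, with replicate 1 lowest for the former and highest for the latter.

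**Figure D3:**
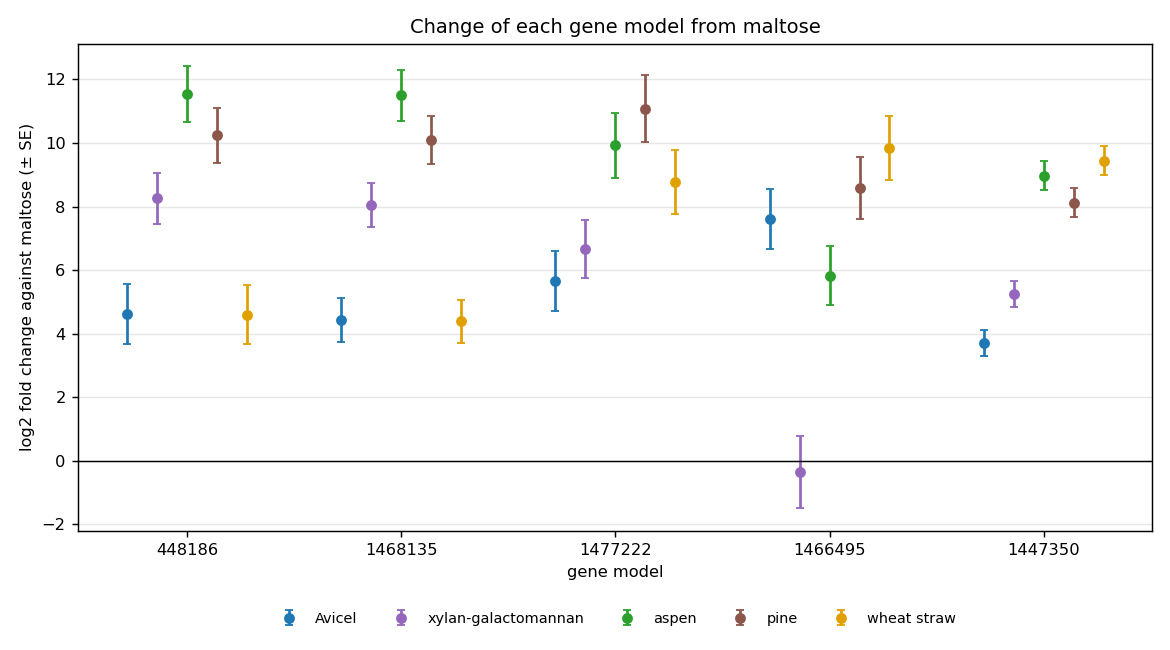
Log2 fold change from maltose (± SE, edgeR) of the 5 gene models on Avicel, xylan-galactomannan, aspen, pine and wheat straw. The changes on the plant substrates run from 4.39 to 11.54, and that of 1466495 on xylan-galactomannan, -0.37 ± 1.14, spans 0.

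A gene model was called when its log2 fold change exceeded 1 at an adjusted p below 0.05. All 5 were called higher on each plant substrate, which follows from how they were chosen and is not read further. Of 11112 gene models tested, the called share was 19.5% on aspen. On pine it was 22.1%, and it was 17.3% on wheat straw. Called gene models with a mean normalized count of 100 or more, and with every substrate library above every maltose library, were ranked by fold change. 448186 and 1468135 then came first and second of 1760 on aspen, and 1477222 came first of 2030 on pine. 1466495 and 1447350 came first and second of 1549 on wheat straw. On the other plant substrates some members stood further down, with 448186 at 133 and 1468135 at 156 of 1549 on wheat straw and 1466495 at 78 of 1760 on aspen.

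Other gene models stood between and just behind them. Directly after the pair on aspen came 1431101 (log2 fold change 11.00 ± 0.57) and 1468611 (10.27 ± 0.67), both annotated as AA2, the family of secreted class II peroxidases that includes the lignin-degrading ones. On pine the gene model after the members was 1437297 (9.94 ± 0.54), a protein with a signal peptide that was detected among the secreted proteins. On wheat straw it was 271638 (9.37 ± 0.67), the locus that overlaps 1477222, followed by 1438837 (9.33 ± 0.82). The latter was detected among the secreted proteins and carries an enzyme number of tripeptidyl peptidases. The paper, however, names it among predicted secreted proteins of unknown function. On Avicel the AA2 genes had log2 fold changes from maltose of 0.06 ± 0.44 and 0.30 ± 0.50 and were not called. On xylan-galactomannan they were called higher, at 4.97 ± 0.44 and 8.67 ± 0.59 (4.77 and 8.67 without replicate 3).

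Avicel and xylan-galactomannan were not used to choose the members, but the maltose libraries were, so these changes are also given without a test. The called share of all gene models, given as background from which nothing is read for the members, was 14.1% of 11112 on Avicel and 19.4% of 11168 on xylan-galactomannan. On Avicel the largest change was that of the AA9 gene 1466495, at 7.61 ± 0.95, and the others were 5.66 ± 0.94 for 1477222, 4.62 ± 0.93 for 448186, 4.43 ± 0.68 for 1468135 and 3.72 ± 0.41 for 1447350. No Avicel library of any member overlapped a maltose library, but the maltose libraries had helped to choose the members. The share of all gene models without such an overlap was not computed, so nothing is read from this. On xylan-galactomannan the changes were 8.26 ± 0.80 for 448186, 8.05 ± 0.68 for 1468135, 6.67 ± 0.90 for 1477222 and 5.25 ± 0.41 for 1447350, and -0.37 ± 1.14 for 1466495. Without xylan-galactomannan replicate 3 these 5 values were 8.21, 8.05, 6.71, 5.12 and -0.68. Without maltose replicate 3 that of 1477222 was 6.58 on Avicel and 7.60 on xylan-galactomannan.

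The comparison of xylan-galactomannan with Avicel, a hemicellulose medium with a cellulose medium, used no library that had chosen the members, and here they were tested. 448186 and 1468135 were up-regulated on xylan-galactomannan, by 3.61 ± 0.54 (edgeR adjusted p = 3.1e-05) and 3.60 ± 0.51 (adjusted p = 1.91e-05) on the log2 scale. Their levels rose from 1.63 ± 0.42 to 20.0 ± 3.12 CPM and from 5.06 ± 1.10 to 61.2 ± 8.31 CPM. 1447350 was also up-regulated, by 1.50 ± 0.32 (edgeR adjusted p = 0.000766), from 4.45 ± 0.54 to 12.6 ± 1.94 CPM, a call that Bonferroni adjustment ended (edgeR adjusted p = 1). In each of these cases all 3 libraries of the one medium lay above all 3 of the other. How many of all gene models were separated in this way was not computed.

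1466495 moved the opposite way in this comparison, falling from 49.9 ± 20.9 CPM on Avicel to 0.190 ± 0.0763 CPM on xylan-galactomannan. Its log2 fold change was -8.01 ± 0.92 (edgeR adjusted p = 1.68e-06), with no overlap between libraries. 1477222 did not pass the test, with 19.1 ± 5.95 CPM on xylan-galactomannan and 9.66 ± 5.85 CPM on Avicel, a log2 fold change of 0.98 ± 0.63 (edgeR adjusted p = 0.205). Its Avicel libraries ran from 2.94 to 13.6 CPM, and without Avicel replicate 2 the change was 0.55. Over all 11168 gene models 16.3% were called higher and 14.2% lower on xylan-galactomannan than on Avicel, and the median change was -0.01. Without xylan-galactomannan replicate 3, the values were 3.56 for 448186, 3.59 for 1468135, 1.37 for 1447350, -8.32 for 1466495 and 1.02 for 1477222. The calls were as with all libraries, since the adjusted p of 1477222 by edgeR was 0.238. Without this library 1979 gene models were called higher and 2058 lower, beside 1825 and 1589.

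Annotated genes of the cellulose oxidation system from the gene lists of the study gave a reference for 1466495. They are 2 AA9 genes with a cellulose-binding CBM1 module, 1382161 and 1428145, and the cellobiose dehydrogenase 1401955. These genes come from node 14 of a map on which the study grouped genes of similar profile. The genome was not searched for further genes of these families. The study built the map on the maltose, Avicel, aspen, pine and wheat straw libraries and picked this node for its many secreted proteins. The direction of these genes on those carbon sources is thus not independent evidence. Xylan-galactomannan took no part in the map, but the Avicel and maltose libraries it is compared with did. All 3 were higher on Avicel than on maltose, with log2 fold changes of 7.53 ± 0.65, 6.89 ± 0.61 and 7.97 ± 0.79 (edgeR adjusted p from 2e-07 to 7.7e-07). All 3 were lower on xylan-galactomannan than on Avicel, by -8.25 ± 0.67, -9.16 ± 0.67 and -8.76 ± 0.80. Against maltose on xylan-galactomannan, 1428145 was lower (-2.24 ± 0.51, edgeR adjusted p = 0.0012), and 1382161 and 1401955 did not pass the test, at -0.69 ± 0.50 and -0.77 ± 0.59. Without xylan-galactomannan replicate 3 the calls were the same, with values of -8.58, -9.53 and -9.14 against Avicel and -1.02, -2.61 and -1.15 against maltose for 1382161, 1428145 and 1401955.

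Each of these 3 genes had its highest mean on Avicel. 1382161 had 1508 ± 91.4 CPM on Avicel and 124.8 ± 56.4 CPM on wheat straw. 1428145 had 1703 ± 107 and 308.6 ± 118 CPM, and 1401955 had 2405 ± 288 and 425 ± 148 CPM. The mean of 1466495 was higher on wheat straw than on Avicel, at 233.6 and 49.9 CPM, but its libraries on these media overlapped. Whether the genes differ in this respect was not tested.

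The study placed genes of similar profile on a map and listed genes of the selected map nodes, and the members shared their nodes with 4 other gene models. 271638 and 1437297 stood with 1477222 and 1447350, and 1430513 and 1440726 with 1466495. 448186 and 1468135 made up a node of their own in that list. Likeness to the members is thus part of how the 4 were listed. The lists also held only genes that the study found up-regulated against maltose on a plant substrate. All 4 were called higher than on maltose in each of the 5 comparisons with it, beside 14.1% to 22.1% of all gene models. The calls on plant substrates follow in part from that selection, and all 5 comparisons share its maltose libraries. Nothing is therefore read from them. On xylan-galactomannan against Avicel 3 of 4 were higher and 0 lower, beside 16.3% and 14.2% of all gene models. The changes were 5.74 ± 0.48 for 1437297 (edgeR adjusted p = 4.9e-08), 1.35 ± 0.41 for 1430513 (adjusted p = 0.012), 1.20 ± 0.41 for 271638 (adjusted p = 0.021) and 0.13 ± 0.50 for 1440726. Without xylan-galactomannan replicate 3 these values were 6.05, 1.24, 1.22 and 0.18, with the same calls.

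Xylan-galactomannan set 1466495 beside its node mates as follows. From maltose to this medium, 1430513 rose by 8.09 ± 0.56 and 1440726 by 4.70 ± 0.62 on the log2 scale, and the value of 1466495 was -0.37 ± 1.14. Without xylan-galactomannan replicate 3 these were 7.98, 4.74 and -0.68. Wheat straw replicate 1 was low for both node mates, as it was for 1466495. 1430513 had 7502 counts in it beside 45446 and 26753 in replicates 2 and 3. 1440726 had 112 CPM beside 241 and 238 CPM. Replicate 1 was also the lowest on wheat straw for 1382161, 1428145 and 1401955, so this was not particular to the node. 271638 went the other way, with 211 CPM in replicate 1 beside 44.9 and 83.6 CPM. How many of all gene models had either order was not computed.

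Over the 18 libraries 1466495 was the member least like the others. As a description of log2 CPM over 6 carbon sources with 3 libraries each, Pearson's r between 448186 and 1468135 was 0.998, and r between 1477222 and 1447350 was 0.898. With the pair, r was 0.834 and 0.850 for 1477222 and 0.70 and 0.72 for 1447350. r between 1466495 and the pair was 0.24 and 0.26. Its highest r with another member was 0.66, with 1447350. Among 11167 other gene models, 1447350 ranked 780 by its r to 1466495.

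The 3 gene models most like each member reached r from 0.908 to 0.998. After each other, 448186 and 1468135 were most like 582532 (r = 0.960 and 0.962), a secreted protein annotated as a carboxylic ester hydrolase, and 1277099 (r = 0.953 and 0.957). 1477222 was most like 1433745 (r = 0.985), 1428382 (0.968) and 1430324 (0.967). 1447350 was most like 1389582 (r = 0.967), 1060546 (0.954) and 1443011 (0.949). By Spearman's rho these ranked 28, 12 and 22, so that none stayed among the 10 most like 1447350. The AA9 gene had the lowest values, with 341717 (r = 0.909), 1468141 (0.908) and 1460442 (0.908). These 3 ranked 19, 68 and 71 by r over the 15 libraries without xylan-galactomannan, so that none of them stayed among its 10 most alike. The value of r does not depend on the size of a change. The log2 fold change from maltose was 6.49 ± 0.47 for 582532 and 3.35 ± 0.27 for 1277099 on aspen, 2.46 ± 0.20 for 1433745 on pine, 1.44 ± 0.24 for 341717 on wheat straw and 5.96 ± 0.45 for 1389582 on wheat straw.

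**Figure D4:**
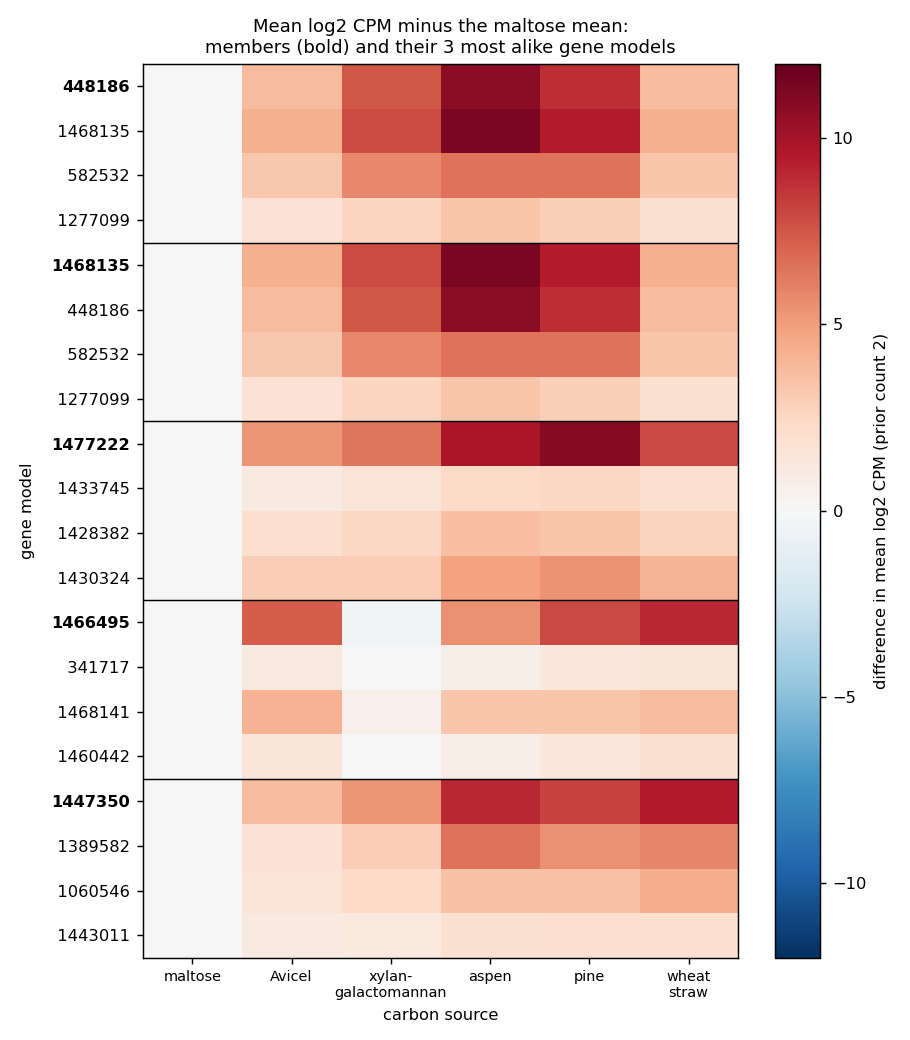
Difference of mean log2 CPM (prior count 2, n = 3 libraries) from maltose for each member (bold) and the 3 gene models with the highest Pearson r to it, by carbon source. The members reach the darker reds on the plant substrates, and in the block of 1466495 the xylan-galactomannan column is pale.

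The listed neighbours on the assembly, other than the members, were 8 gene models, of which 7 could be tested. On aspen 3 of 7 were higher than on maltose and 0 lower, beside 19.5% of all gene models called higher. On pine 5 were higher and 1 lower (22.1% of all higher), on wheat straw 5 and 0 (17.3%), on Avicel 2 and 0 (14.1%), and on xylan-galactomannan 4 and 0 (19.4%), or 3 without its replicate 3. Among them is 271638, which overlaps 1477222. Of the neighbours of the AA9 gene, 1466496 was not called on wheat straw, and 173167 was the neighbour that could not be tested. 1466496, at 408 bases, had a log2 fold change of 0.28 ± 0.18 on wheat straw (edgeR adjusted p = 0.21), and 173167, at 814 bases, had 22 counts over the maltose libraries and 0, 0 and 1 on wheat straw. 1368088, which follows 1468135 at 2126 bases, was lower on pine by -1.62 ± 0.28 (edgeR adjusted p = 0.0001). 976354, at 993 bases from 1447350, was higher on aspen by 3.39 ± 0.31 (edgeR adjusted p = 2.1e-07).

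The level of a gene per length depended on the length that was used. The deposited RPKM, reads relative to length and to library size, divide by a mappable length, which covers the transcript of 1447350 in full (1188 of 1188 bases) and most of those of 1468135 (318 of 330), 1466495 (734 of 768) and 1477222 (614 of 759). For 448186 it is 25 of 601 bases, or 4.16%. Of 11862 gene models with a mappable length above 0, 82 (0.691%) are under 10%, and the median over all gene models is 93.7%. The mappable length was shorter in gene models that overlap a neighbour, with a median of 88.7% in 3148 of these beside 95.2% in 9532 others. Under 10% were 16 of the 3148 that overlap a listed neighbour and 66 of the 9532 others. Whether overlap bears on the short mappable length of 448186 was not tested.

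On aspen the deposited RPKM of 448186 was 7268 ± 636 (SD, n = 3), which ranked it 8 to 12 among all gene models in the 3 libraries. Divided by the whole transcript length, an alternative added after the data were seen, it was 302 ± 26.4 RPKM, at ranks 437 to 541. For 1468135 the values were 1965 ± 192 and 1894 ± 185 RPKM, at ranks 50 to 61 and 45 to 50. 448186 was thus above 1468135 on the deposited scale and below it per transcript length, while its raw count was the lower in every library. Per transcript length the order on aspen was 1468135, 448186, 1477222 (225 ± 22.3), 1447350 (131 ± 16.5) and 1466495 (17.2 ± 5.93). On wheat straw 1466495 (343 ± 295) and 1447350 (221 ± 17.4) stood first by their means, and 448186 was last (3.00 ± 1.19).

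**Figure D5:**
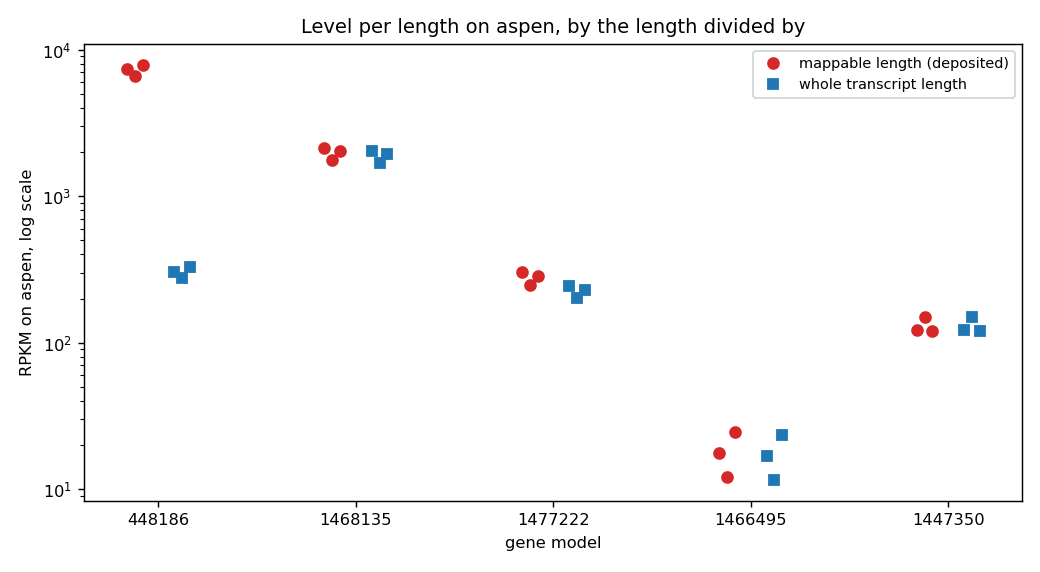
RPKM of the 5 gene models in the 3 aspen libraries (log axis), dividing by the mappable length as deposited (circles) or by the whole transcript length (squares). The scales differ most for 448186, at a mean of 7268 beside 302 RPKM.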

How the data were processed

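RNA was measured in 18 libraries of mycelium, 3 for each of 6 carbon sources, grouped by the sample titles. The study calls the libraries of a group biological replicates. The authors trimmed paired-end reads, aligned them with TopHat 2, used HTSeq for counting and deposited raw counts for 12690 gene models. They also deposited RPKM, in which counts are scaled by library total and mappable length. The aligned build and the strand setting are not given in the sources used here. All columns were matched to samples.

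Counts were tested with edgeR 4.0.16 (R 4.3.3, limma 3.58.1) with TMM, filterByExpr, quasi-likelihood fits and Benjamini-Hochberg adjustment over all gene models tested. The 15 libraries without xylan-galactomannan made one fit (11112 gene models), and all 18 made another (11168), used wherever xylan-galactomannan entered. Calls needed a log2 fold change beyond 1 in size and an adjusted p below 0.05. The SE is the fold change divided by the square root of F. The code was tested on simulated data. All 5 members passed the filter. Likeness used log2 CPM with a prior count of 2. Intervals are exact at 95% for counts taken as independent and cover counting error only. Replicates differed by more than sampling noise (chi-square per degree of freedom from 23.2 to 367).

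Members, lists and rules were chosen with earlier results of these data known. Named genes are the members, the 3 most alike to each, those ranked directly after them, and the nearest annotated neighbours. The genes that the study lists in the same map nodes, and the AA9 and cellobiose dehydrogenase genes in its gene lists, are also named. A protein search was not run. Alternatives were DESeq2 1.42.0, other size factors, no filter, other sets of libraries, a replicate block, a prior count of 2, Bonferroni adjustment and other measures of likeness. Gene positions come from the public annotation of the Pycco1 assembly (12680 gene models matched by locus tag). Tables and plots used Python 3.11.15, pandas 2.3.3, scipy 1.17.1 and matplotlib 3.10.9.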

Additional observations from a re-analysis of the deposited data

How the results depend on the processing

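The counts of called genes stayed within 1.5 times the reported value under every alternative run except Bonferroni adjustment, which left 621 genes higher and 414 lower on xylan-galactomannan than on Avicel, beside 1825 and 1589. It also ended the call for 1447350 in that comparison (log2 fold change 1.50, edgeR with Bonferroni-adjusted p = 1), whereas the calls of 448186, 1468135 and 1466495 held under each alternative. Replicate numbers did not pair the libraries: in 0 of 15 pairs of groups did all 3 correlations of same-numbered deviations exceed 0.1 (range -0.14 to 0.30). With a replicate block 2159 genes were higher on aspen than on maltose, beside 2170, and the change of 1477222 on xylan-galactomannan against Avicel was 1.12 (edgeR adjusted p = 0.0787). A prior count of 2 lowered the changes of 448186 from maltose to 10.67 on aspen, 9.38 on pine, 3.78 for wheat straw, 3.80 on Avicel and 7.39 on xylan-galactomannan. Of the 15 most alike gene models, counted once for each member, 9 stayed among the 10 most alike with Spearman's rho, 11 with 6 group means and 11 with 15 libraries; of the 3 of 1466495, 1, 2 and 0 did. The few counts on maltose limit every fold change from it: leaving out single maltose libraries moved the rise of 1477222 on wheat straw between 8.37 and 9.69, and leaving out wheat straw replicate 1 gave 7.24.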
